A study of Mus musculus with 18 samples.

Results

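The genes described here are those for potassium channels and their named subunits, chosen by symbol: every row of the deposited tables whose symbol starts with Kcn followed by a lower-case letter, apart from Kcnj10. The rule found 70 members among the 13784 genes of each table. A mouse gene name table holds 98 symbols that fit the rule, so 28 had no row, among them Kcne1 to Kcne4, Kcnj13, Kcnk5, Kcnn4 and Kcnq1. The members comprise 35 voltage-gated channel genes, 9 inward rectifiers, 9 leak channels, 9 auxiliary subunits and the noncoding RNA Kcnq1ot1. The other 7 were placed by symbol in the family of calcium- and sodium-activated channels.

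RNA was measured in bulk cortex in 18 libraries, and the listed age was 4 to 6 months in every group, saline and LPS. Mice with a conditional knockout (cKO) of the chromatin remodeller Chd8 restricted to astrocytes received saline (4 libraries) or lipopolysaccharide (LPS), a bacterial outer-membrane component that provokes innate immunity (5 libraries). Control mice likewise received saline (4 libraries) or LPS (5 libraries). The labels do not say that each library came from a separate mouse, so p-values measure the spread between these libraries, which may be partly technical. LPS was injected intraperitoneally at 5 mg/kg and tissue was collected 72 hours later; saline libraries carry the label of 3 days. The sources used here give neither the Cre driver of the knockout nor what alleles the controls carry. The design addressed transcription after astrocytic loss of Chd8 at baseline and under neuroinflammation.

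Potassium channels let potassium leave the cell and so pull the membrane potential down. Voltage-gated channels repolarise the action potential and set firing rate, inward rectifiers and leak channels hold the resting potential, and calcium- and sodium-activated channels produce after-hyperpolarisation. Astrocytes take up the potassium that active neurons release, through inward rectifiers, leak channels and the sodium-potassium pump. In macrophages and microglia, potassium efflux is a known trigger of the NLRP3 inflammasome.

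All fold changes below are log2 values from the authors' deposited tables of 3 comparisons, with an SE derived as the log2 fold change over the root of the deposited F. A gene was called changed at a deposited FDR below 0.05. Group levels are log2 CPM (counts scaled to library size) back-calculated from each fold change and mean. They are estimates without an error, and are compared here only within a gene. The level of a group that stands in 2 tables differed between them by at most 0.16 over the members. Values for single libraries were not used here, so neither overlap nor spread between them can be stated, and sequencing depth is unknown.

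Chd8 itself differed between cKO and control mice after LPS by 0.02 ± 0.05 (SE; FDR 0.901) in the authors' deposited table. The table holds 1 value per gene over all cortical cells, so it does not check the knockout in astrocytes. The Y-linked gene Ddx3y had estimated levels of -7.19 in control saline, 3.68 in control LPS, 5.87 in cKO saline and 5.71 in cKO LPS mice. The Y-linked gene Uty stood at -7.35, 2.47, 4.80 and 4.30 in the same order of groups, and the X-linked Xist at 7.47, 7.33, 4.35 and 5.91. Ddx3y and Uty were called higher with LPS in controls (FDR 0.0351 and 0.0377), and Xist was called in no comparison. Levels of these sex-linked genes thus moved with the groups, and the labels give no sex. A difference in sex between groups cannot be told apart from treatment or genotype here, and its part in the member results was not tested. Markers of striatal neurons were above 0 for cKO minus control after LPS in 9 of 9 genes (median 0.63), against 50.5% of all genes. None of the 9 passed an FDR of 0.05 in the authors' deposited table, and 1 had an unadjusted p below 0.05. The summed level of these markers was 468 CPM in control saline, 420 in control LPS, 513 in cKO saline and 606 in cKO LPS mice. Of the choroid plexus markers Folr1, Otx2 and Aqp1 had no row, and the 3 measured ones summed to 114, 11.4, 117 and 22.1 CPM in the same order of groups. The channel genes best known from choroid plexus (Kcne2, Kcnj13, Kcnq1) had no row either.

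In controls, LPS changed 5 of 70 members (7.14%), against 9.76% of all genes tested. Kcnk6, Kcnt1 and Kcnn3 rose, 3 members against 6.46% of all genes, and Kcng4 and Kcnk1 fell, 2 members against 3.31%. The share called was thus near the background. The median log2 fold change of the members was -0.05, against 0.00 for all genes. In bulk tissue, fewer cells of a type and less RNA per cell cannot be told apart, which applies to every change reported here.

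In cKO mice, LPS changed 16 of 70 members (22.9%), against 19.5% of all genes. Only 3 members rose (Kcnk2, Kcnt1 and Kcnab1), against 10.9% of all genes called higher, while 13 fell (18.6%), against 8.52% called lower. The 13 were Kcnh1, Kcnh7, Kcnt2, Kcnj12, Kcnk1, Kcna6, Kcnj6, Kcnv1, Kcnq5, Kcnd2, Kcnmb4, Kcnma1 and Kcnc2. Their fold changes ran from -0.47 to -0.18, and the median over all members was -0.07. Kcnt1 and Kcnk1 were the 2 members called in both genotypes, each in the same direction.

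**Figure D1:**
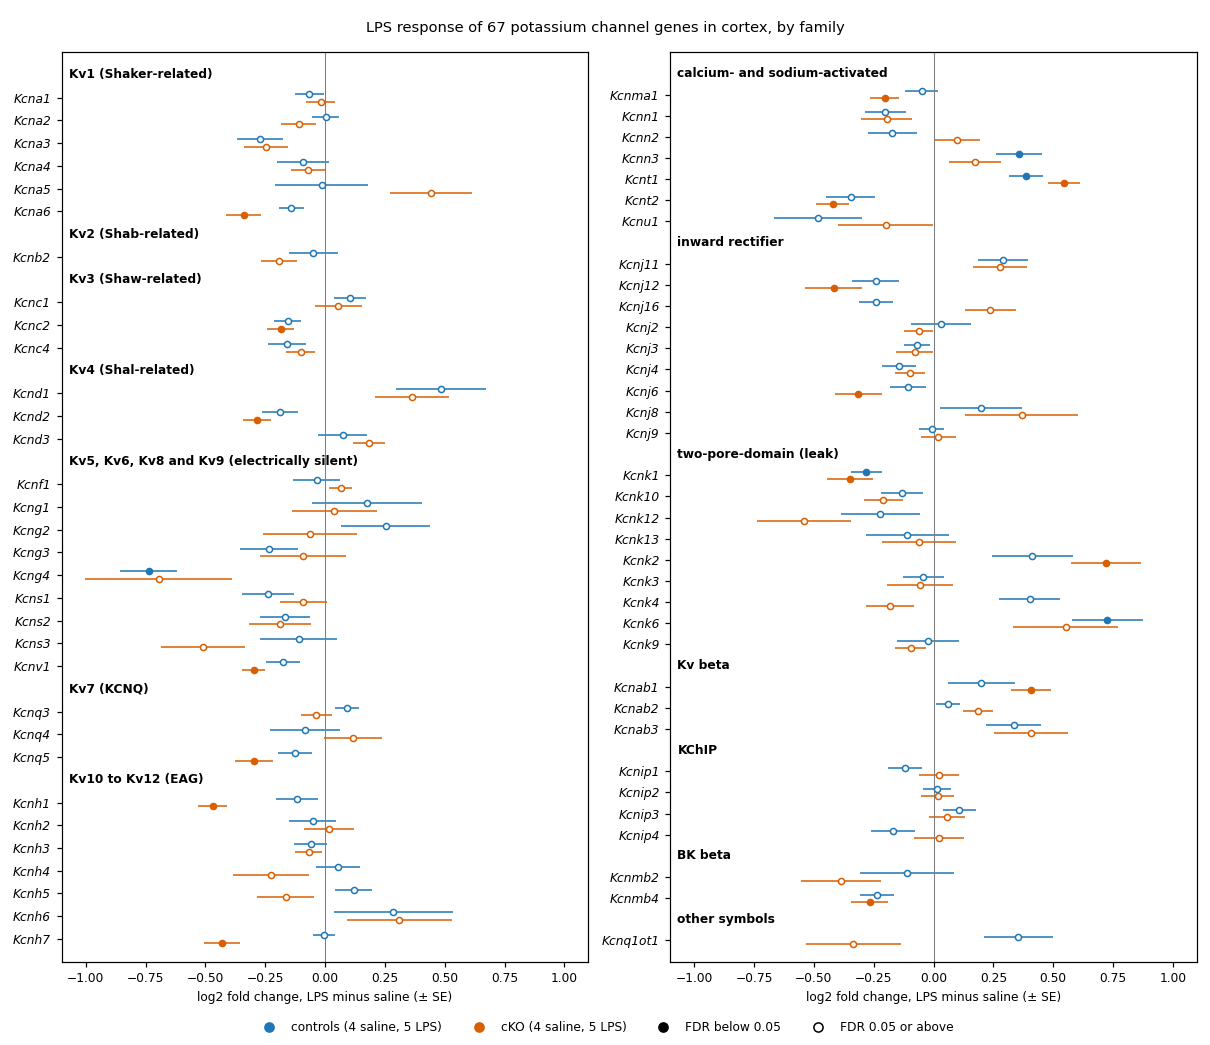
Log2 fold change, LPS minus saline (x axis, ± SE), of 67 of the 70 members grouped by family, in controls (blue) and cKO mice (orange). Filled points have a deposited FDR below 0.05: 5 in controls and 16 in cKO mice, 13 of the latter left of 0.

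After LPS, no member of 70 differed between cKO and control mice at an FDR of 0.05 in the authors' deposited table from edgeR, where 0.00725% of all genes (1 gene) did. At an unadjusted p below 0.05 there were 14 members (20%), against 12.3% of all genes: 9 were lower in cKO mice (6.33% of all genes were) and 5 were higher (5.98% of all genes were). Among the lower ones were Kcnh7, Kcnk4, Kcnh1, Kcnq1ot1, Kcna6, Kcnv1, Kcnh5 and Kcnq3. The higher ones were Kcnj16, Kcnk2, Kcna5, Kcnn2 and Kcnt1.

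The LPS response itself, cKO minus controls, was tested for each gene from the LPS comparisons of both genotypes, which share no library. No member passed an adjusted p of 0.05, where 0.00725% of all genes did. At an unadjusted p below 0.05 there were 6 members, against 6.52% of all genes, among them Kcnh7, Kcnj16, Kcnk4, Kcnq1ot1 and Kcnh1. The test takes its SE from the normal quantile of p. With the SE taken from F instead, Kcnh7 (adjusted p = 0.00127), Kcnj16 (adjusted p = 0.0339) and Kcnk4 (adjusted p = 0.0477) passed, and 0.747% of all genes did. That setting still reads the ratio against a normal distribution. The F values carry only 9.85 (controls) and 9.76 (cKO mice) implied residual degrees of freedom, so its p-values are too small. A difference between genotypes is therefore not established for these 3 either. Of these 3, Kcnh7 alone had an LPS call, in cKO mice. For the other members called in 1 genotype and not in the other, a difference between genotypes is not shown by either setting.

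Across the members, the LPS response in controls and in cKO mice correlated with Pearson's r = 0.69 and Spearman's rho = 0.63 (n = 70 genes). The same values over all 13784 genes were 0.68 and 0.63. The sign was shared by 52 of 70 members (74.3%), and by 74.2% of all genes. Genes are not independent replicates, and the members of a comparison share its libraries.

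**Figure D2:**
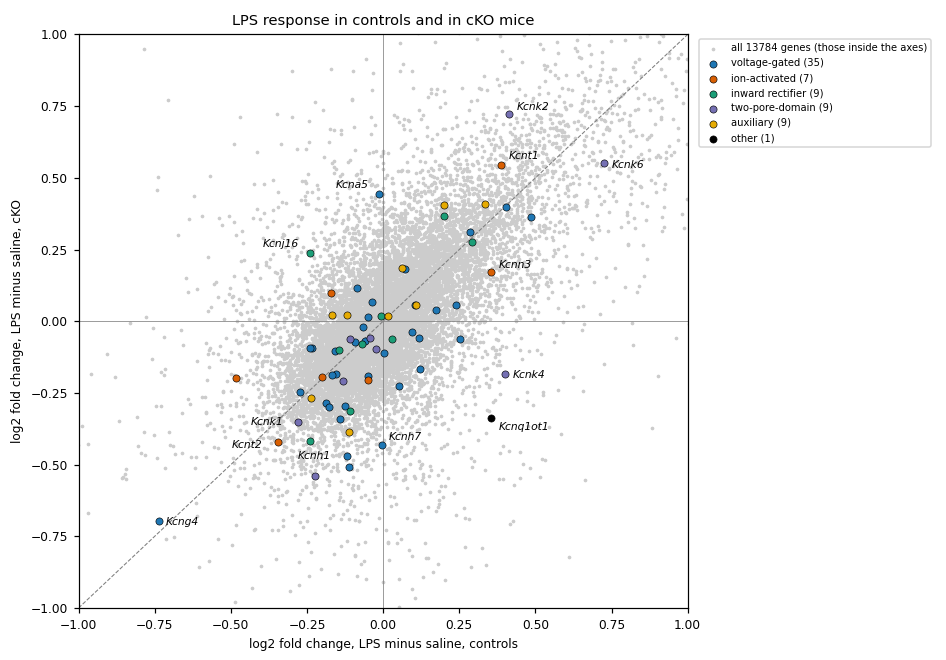
LPS response in cKO mice (y axis, log2 fold change) against that in controls (x axis), with members coloured by class over all genes in grey; the dashed line marks equal responses. Kcnh7, Kcnk4 and Kcnq1ot1 lie well below the line, and Kcnj16 and Kcna5 above it.

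Among voltage-gated members, LPS raised none and lowered 7 of 35 in cKO mice, where 10.9% of all genes were called higher and 8.52% lower. In controls it raised none and lowered 1 of 35, where 6.46% of all genes were called higher and 3.31% lower, so the count of falls in controls was near the background. The EAG family (Kv10 to Kv12) held the lowest fold changes of this class among those called in cKO mice. Its genes encode ether-a-go-go, Erg and Elk channels, which gate slowly and shape firing near threshold. Kcnh1, which encodes Kv10.1, had estimated levels of 7.22 in control saline, 7.10 in control LPS, 7.27 in cKO saline and 6.80 in cKO LPS mice. The cKO LPS level was the low one of the 4. LPS lowered Kcnh1 in cKO mice by a log2 fold change of -0.47 ± 0.06 (FDR 0.00447), to 0.722 of the saline level, in the authors' deposited table. In controls Kcnh1 gave -0.12 ± 0.09 (FDR 0.402), and cKO minus control after LPS was -0.34 ± 0.09 (FDR 0.282).

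Kcnh7, which encodes the Erg3 channel Kv11.3, stood at 8.04 in control saline, 8.03 in control LPS, 8.08 in cKO saline and 7.65 in cKO LPS mice. As for Kcnh1, 3 groups lay close together and cKO mice given LPS were lower. The LPS response of Kcnh7 in the authors' deposited tables was -0.43 ± 0.07 in cKO mice (FDR 0.00793) and -0.01 ± 0.05 in controls (FDR 0.956). The difference of the responses was -0.43 ± 0.12 (adjusted p = 0.402). After LPS, cKO minus control was -0.44 ± 0.08 (smallest p of the members, FDR 0.153). In the annotation used, Kcnh7 shares exon sequence with Gca on the opposite strand. The sources used here do not give the strand setting of the counting. Exon overlaps with another gene were found for 25 of the 70 members, and for 5 of them with a measured gene. Called members such as Kcna6, Kcnk1 and Kcnt2 are among the 25, so this limit is not particular to Kcnh7. Gca, which encodes the calcium-binding protein grancalcin, gave 0.02 for LPS in cKO mice (FDR 0.916) and -0.31 between genotypes after LPS (FDR 0.402).

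Of the other EAG genes, Kcnh5 (Kv10.2) gave -0.34 ± 0.13 between genotypes after LPS (FDR 0.357), Kcnh3 gave 0.00 and Kcnh6 gave 0.11. In all, 6 of the 7 EAG genes were below 0 in that comparison, with a median of -0.27 against 0.00 for all genes. After saline, the untested estimate of cKO minus control was 0.01 for Kcnh1, -0.01 for Kcnh7 and -0.06 for Kcnh5.

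The start regions of Kcnh1 and Kcnh7, which both fell in cKO mice after LPS, and of Kcnk4, which had the second smallest p between genotypes, are given to show what their promoters hold. They are RefSeq sequences of build GRCm38.p6 (the authors' build, per the submitters' processing notes, is GRCm39), from 250 bases before to 50 after the gene start, read along the gene's strand. Capitals mark the GC box, the letters GGGCGG or its reverse complement CCGCCC, which Sp-family factors bind. Kcnh1 lies at chr1:192190527-192190826 (plus strand), Kcnh7 at chr2:63184238-63184537 (minus strand) and Kcnk4 at chr19:6934466-6934765 (minus strand).
Kcnh1: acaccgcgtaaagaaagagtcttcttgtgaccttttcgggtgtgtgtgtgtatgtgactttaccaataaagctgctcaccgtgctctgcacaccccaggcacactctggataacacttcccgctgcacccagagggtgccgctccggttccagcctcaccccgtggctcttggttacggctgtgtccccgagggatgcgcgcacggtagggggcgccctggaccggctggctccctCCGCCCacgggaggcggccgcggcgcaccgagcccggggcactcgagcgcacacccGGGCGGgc
Kcnh7: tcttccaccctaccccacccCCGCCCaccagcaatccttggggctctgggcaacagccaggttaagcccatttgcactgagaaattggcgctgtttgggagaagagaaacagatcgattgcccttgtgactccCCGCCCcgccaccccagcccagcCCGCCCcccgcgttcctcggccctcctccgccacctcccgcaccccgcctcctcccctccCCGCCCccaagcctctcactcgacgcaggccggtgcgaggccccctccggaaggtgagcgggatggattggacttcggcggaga
Kcnk4: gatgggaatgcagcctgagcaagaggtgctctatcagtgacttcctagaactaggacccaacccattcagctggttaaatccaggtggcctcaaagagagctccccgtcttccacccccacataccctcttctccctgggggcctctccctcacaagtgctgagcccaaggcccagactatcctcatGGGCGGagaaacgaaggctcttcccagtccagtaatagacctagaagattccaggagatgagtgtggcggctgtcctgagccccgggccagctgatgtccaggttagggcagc

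The Kcnh7 stretch holds 4 GC boxes, that of Kcnh1 2 and that of Kcnk4 1. The Kcnh1 and Kcnh7 stretches have 66.0% and 67.7% G and C with 27 and 21 CpG pairs, and that of Kcnk4 57.3% with 5, so the latter is the least CpG-rich of the 3. Over the 72 promoters found for 49 of the members, 35 held a GC box (48.6%), against 35.7% of 32851 promoters of the same length. A TATA box (TATAAA or TTTATA) was in 3 member promoters (4.17%), against 13.6% of all. The cAMP response element TGACGTCA, which reads the same on both strands, was in 0 member promoters, against 1.79% of all. Of these 3 motifs only the GC box occurs in the stretches printed. Member promoters had a median of 60% G and C and 9.5 CpG pairs, against 52.7% and 7 over all promoters. The motif shares were not adjusted for this base composition. A match of letters is a description of the sequence.

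The Kv1 to Kv4 families form the classic delayed rectifiers and A-type channels. Kcna6, encoding Kv1.6, stood at 6.90, 6.76, 6.90 and 6.56 in control saline, control LPS, cKO saline and cKO LPS mice, lowest in the last. In the authors' deposited tables LPS lowered Kcna6 in cKO mice by -0.34 ± 0.07 (FDR 0.0155), against -0.14 ± 0.05 in controls (FDR 0.106), and the difference was -0.20 (adjusted p = 0.827). Kcnd2, encoding the dendritic A-type channel Kv4.2, gave -0.28 ± 0.06 in cKO mice (FDR 0.0141) and -0.19 ± 0.08 in controls (FDR 0.139). Kcnc2, encoding the fast Kv3.2, gave -0.18 ± 0.06 in cKO mice (FDR 0.0464) and -0.16 ± 0.06 in controls (FDR 0.104).

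Members of these families that did not pass the test spread to both sides of 0. Kcnd1, encoding Kv4.1, gave 0.49 ± 0.19 in controls (FDR 0.122) and 0.36 ± 0.16 in cKO mice (FDR 0.126). Kcna5, encoding Kv1.5, had estimated levels of 1.96, 1.95, 2.15 and 2.59 in control saline, control LPS, cKO saline and cKO LPS mice. Its cKO minus control value after LPS was 0.74 ± 0.23 (FDR 0.299), the largest above 0 among the members, with an untested estimate of 0.28 after saline. Kcna1 and Kcna2, the Kv1 channels of axons, lay between -0.13 and 0.00 in all 3 deposited comparisons.

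The electrically silent subunits (Kv5, Kv6, Kv8 and Kv9) form no channel alone and modify Kv2 channels. Kcng4, encoding Kv6.4, stood at 3.22 in control saline and 2.49 in control LPS mice, and at 2.94 and 2.24 in cKO mice. LPS lowered Kcng4 in controls by -0.74 ± 0.12 (FDR 0.00684), to 0.600 of the saline level, the lowest fold change of any member there. In cKO mice the value was of like size with a wider error, -0.70 ± 0.31 (FDR 0.135), and the difference of the responses was 0.04 ± 0.40. Kcnv1, encoding Kv8.1, fell with LPS in cKO mice by -0.30 ± 0.05 (FDR 0.00687) and gave -0.18 ± 0.07 in controls (FDR 0.142). Kcns3, a subunit of parvalbumin interneurons, gave -0.51 ± 0.17 in cKO mice (FDR 0.0666) and -0.11 in controls.

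The Kv7 genes Kcnq3 and Kcnq5 encode subunits of the M-current, a slow brake on repetitive firing. Kcnq5 fell with LPS in cKO mice by -0.30 ± 0.08 (FDR 0.0309), and gave -0.13 ± 0.07 in controls (FDR 0.270). Kcnq3 was not called in any comparison, and its cKO minus control value after LPS was -0.14 ± 0.06 (FDR 0.402).

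**Figure D3:**
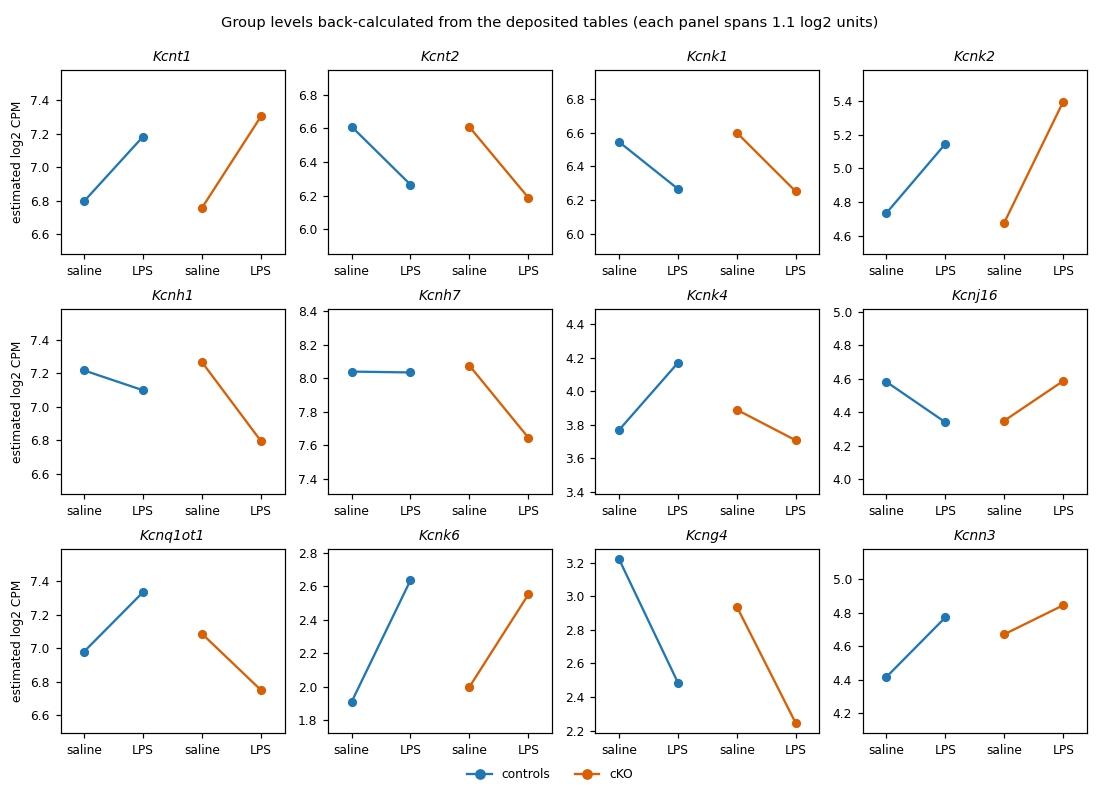
Estimated log2 CPM (y axis) of 12 members in saline and LPS mice of each genotype, back-calculated from the deposited tables, without error bars because no values per library were used; every panel spans the same number of log2 units. Kcnt1 and Kcnk2 are higher with LPS in both genotypes, while Kcnk4 and Kcnq1ot1 are highest in control LPS and lowest in cKO LPS mice.

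The ion-activated genes held a pair of close relatives with opposite responses. Kcnt1 and Kcnt2 encode the sodium-activated channels Slack and Slick, which can assemble together. Kcnt1 stood at 6.80 in control saline and 7.18 in control LPS mice, and at 6.76 and 7.30 in cKO mice, so both LPS groups were the high ones. LPS raised Kcnt1 in the authors' deposited tables by 0.39 ± 0.07 in controls (FDR 0.0126) and by 0.55 ± 0.07 in cKO mice (FDR 0.00387). Kcnt2 stood at 6.61 and 6.27 in control saline and LPS mice, and at 6.61 and 6.19 in cKO mice. It fell in cKO mice by -0.42 ± 0.07 (FDR 0.00698) and gave -0.35 ± 0.10 in controls (FDR 0.0621), so the fall was called in cKO mice alone, with a difference of -0.07 (adjusted p = 0.963).

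Among the pore genes of calcium-activated channels, the calls were 1 in controls and 1 in cKO mice. Of all 7 ion-activated genes, 2 rose in controls, and 1 rose and 2 fell in cKO mice. Over all genes 9.76% were called in controls and 19.5% in cKO mice, so these counts are too small to set apart from the background. Kcnn3, encoding the small-conductance channel SK3, rose with LPS in controls by 0.36 ± 0.10 (FDR 0.0466), and gave 0.17 ± 0.11 in cKO mice (FDR 0.278). Kcnma1, the pore of the large-conductance BK channel, fell in cKO mice by -0.20 ± 0.06 (FDR 0.0445), as did Kcnmb4, its neuronal beta subunit, by -0.27 ± 0.08 (FDR 0.0392). In controls Kcnma1 gave -0.05 (FDR 0.680) and Kcnmb4 -0.24 ± 0.07 (FDR 0.0619). Kcnn2, encoding SK2, gave 0.30 ± 0.12 between genotypes after LPS (FDR 0.383). Removing a trend of fold change on GC content and transcript length ended 5 member calls, some with little change in the fold change itself. Kcnn3 went from 0.36 to 0.34 in controls (adjusted p = 0.0603). In cKO mice Kcnc2 went from -0.18 to -0.17 (adjusted p = 0.0652), and Kcnj6 from -0.31 to -0.33 (adjusted p = 0.0510). Kcnma1 went from -0.20 to -0.15 (adjusted p = 0.121) and Kcnmb4 from -0.27 to -0.22 (adjusted p = 0.0829).

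None of the 9 inward rectifiers was called in controls (9.76% of all genes were), and 2 fell in cKO mice (8.52% of all genes did), counts too small to set apart from the background. Kcnj12, encoding Kir2.2, fell by -0.42 ± 0.12 (FDR 0.0382), and gave -0.24 ± 0.10 in controls (FDR 0.140). Kcnj6, encoding the G-protein-gated GIRK2, fell by -0.31 ± 0.10 (FDR 0.0488), and gave -0.11 ± 0.08 in controls (FDR 0.381). Kcnj16 encodes Kir5.1, which pairs with Kir4.1 in astrocytes. It stood at 4.58 in control saline, 4.34 in control LPS, 4.35 in cKO saline and 4.59 in cKO LPS mice, so the high and the low treatment group changed places between genotypes. Its LPS response was -0.24 ± 0.07 in controls (FDR 0.0573) and 0.24 ± 0.11 in cKO mice (FDR 0.139), a difference of 0.48 ± 0.15 (adjusted p = 0.433). Kcnj11, the pore of the neuronal ATP-sensitive channel, gave 0.29 in controls and 0.28 in cKO mice (FDR 0.101 and 0.110). The vessel-wall genes Kcnj8 and Kcnj2 gave 0.20 and 0.03 in controls, and 0.37 and -0.06 in cKO mice, none of them called.

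The K2P genes encode leak channels that set the resting potential. Kcnk6 (TWIK-2), a potassium efflux channel of macrophages, stood at 1.91 in control saline and 2.63 in control LPS mice, and at 2.00 and 2.55 in cKO mice. LPS raised Kcnk6 in controls by 0.73 ± 0.15 (FDR 0.0194), a 1.65-fold rise and the largest of any member there. In cKO mice the value was 0.55 ± 0.22 (FDR 0.104), and the difference was -0.18 ± 0.33 (adjusted p = 0.956). Kcnk2 (TREK-1), a mechano- and lipid-gated channel of neurons and astrocytes, stood at 4.73 and 5.15 in controls and at 4.68 and 5.40 in cKO mice, higher with LPS in both. LPS raised Kcnk2 in cKO mice by 0.72 ± 0.15 (FDR 0.0130), a 1.65-fold rise, and gave 0.41 ± 0.17 in controls (FDR 0.140). After LPS its cKO minus control value was 0.29 ± 0.09 (FDR 0.293).

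Kcnk1 (TWIK-1), found in astrocytes and neurons, was the member that fell in both genotypes. Its levels were 6.55 and 6.27 in control saline and LPS mice, and 6.60 and 6.25 in cKO mice. The fall in the authors' deposited tables was -0.28 ± 0.06 in controls (FDR 0.0305) and -0.35 ± 0.10 in cKO mice (FDR 0.0331). Kcnk4 (TRAAK), a mechanosensitive leak channel, stood at 3.77 in control saline, 4.17 in control LPS, 3.89 in cKO saline and 3.71 in cKO LPS mice. Control LPS was the high group, and no LPS response was called: 0.40 ± 0.13 in controls (FDR 0.0740) and -0.18 ± 0.10 in cKO mice (FDR 0.229). The difference was -0.58 ± 0.19 (adjusted p = 0.433), and cKO minus control after LPS was -0.55 ± 0.10 (FDR 0.163). Kcnk4 shares exon sequence on the same strand with Catsperz, a sperm channel gene, which moved the same way: -0.67 ± 0.25 between genotypes after LPS (FDR 0.350). Reads of the pair may be divided between them by the counting, so both values are uncertain. Kcnk12 gave -0.54 ± 0.20 in cKO mice (FDR 0.0805), the lowest of the K2P genes there, and Kcnk10 and Kcnk13 lay between -0.21 and -0.06 in both genotypes.

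**Figure D4:**
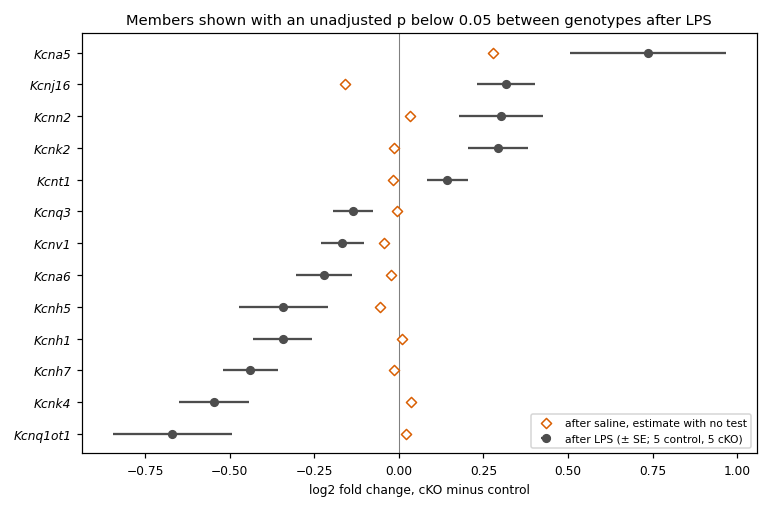
Log2 fold change, cKO minus control (x axis), of 13 of the 14 members with an unadjusted p below 0.05 after LPS: filled points with ± SE are the deposited values after LPS, and open diamonds the untested estimates after saline. None passes an FDR of 0.05, and 8 of the 13 lie left of 0 after LPS.

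Of the 9 auxiliary subunits, LPS raised 1 and lowered 1 in cKO mice, and none was called in controls. Over all genes 10.9% were called higher and 8.52% lower in cKO mice, so these counts are near the background. Kcnab1, whose product is a cytosolic Kv1 beta subunit, rose in cKO mice by 0.41 ± 0.08 (FDR 0.0140), and gave 0.20 ± 0.14 in controls (FDR 0.378). Its relatives Kcnab2 and Kcnab3 gave 0.18 and 0.41 in cKO mice (FDR 0.0684 and 0.0897), so all 3 beta genes were above 0 and 1 passed. The 4 KChIP genes, calcium sensors bound to Kv4 channels, lay between 0.02 and 0.06 in cKO mice, with none called. The fall of Kcnmb4 is given above.

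Kcnq1ot1 is not a channel gene but a long noncoding RNA, transcribed antisense to Kcnq1 and known for silencing imprinted neighbours. It stood at 6.98 in control saline, 7.33 in control LPS, 7.09 in cKO saline and 6.75 in cKO LPS mice. LPS gave 0.35 ± 0.14 in controls (FDR 0.140) and -0.34 ± 0.20 in cKO mice (FDR 0.254). The difference was -0.69 ± 0.27 (adjusted p = 0.637), and cKO minus control after LPS was -0.67 ± 0.18 (FDR 0.282), the lowest of the members. Kcnq1 had no row, so it could not be read beside it.

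Members were also read by the cell type each is best known from, in lists drawn up from general knowledge. Of 15 genes known from pyramidal neurons, 6 fell with LPS in cKO mice (Kcnh1, Kcnh7, Kcnv1, Kcnq5, Kcnd2 and Kcnma1) and none rose, where 8.52% of all genes were called lower and 10.9% higher. Of all 70 members, 18.6% were called lower there. The median of the 15 was -0.07, the same as over all 70 members. In controls none of the 15 was called, where 9.76% of all genes were, with a median of -0.06. Their summed level was 2809 CPM in control saline, 2831 in control LPS, 2858 in cKO saline and 2602 in cKO LPS mice, lowest in the last. Of 12 general markers of excitatory neurons, 2 rose and none fell in either genotype, with a summed level of 2484, 2958, 2500 and 2873 CPM in the same order. The median of these markers was 0.11 in controls and -0.08 in cKO mice, where 7 of 12 were below 0, so in cKO mice it lay close to that of the channel genes although the marker sum was higher with LPS.

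Of the 6 members known from fast-spiking interneurons, 1 (Kcnc2) fell in cKO mice and none was called in controls. Over all genes 6.46% were called higher and 3.31% lower in controls, and 10.9% higher and 8.52% lower in cKO mice. Counts from these 6 members and the 4 known from astrocytes are too small to set apart from those shares. Of 10 inhibitory neuron markers, none was called in controls and 2 rose in cKO mice. Of the 4 known from astrocytes, Kcnk1 fell in both genotypes, Kcnk2 rose in cKO mice, and Kcnj16 and Kcnk10 were not called. Astrocyte markers went both ways, 1 of 12 rising and 3 falling in controls, and none rising and 4 falling in cKO mice, with sums of 4354, 4220, 5023 and 4502 CPM.

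Of the 3 measured members known from microglia, Kcnk6 rose in controls, while Kcna3 gave -0.27 in controls and -0.25 in cKO mice (FDR 0.0949 and 0.0817) and Kcnk13 gave -0.11 and -0.06. A list of 3 members is too small to set the Kcnk6 call apart from the background, where 6.46% of all genes rose in controls. Microglia markers rose in 8 of 12 cases in controls. In cKO mice 5 of these markers rose and 2 fell, where 10.9% of all genes rose and 8.52% fell. Their summed level was 358 CPM in control saline, 570 in control LPS, 362 in cKO saline and 463 in cKO LPS mice. Endothelial markers rose in 7 of 10 cases in controls (1 fell) and in 4 of 10 in cKO mice, with sums of 225, 330, 231 and 298 CPM. The part of these cell markers in the response of Kcnk6 was not tested.

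Around the channels, genes of potassium transport were read from lists drawn up by function. Over all genes, 6.46% were called higher and 3.31% lower in controls, and 10.9% higher and 8.52% lower in cKO mice. The lists below are small, and their counts were not tested against these shares. Of 9 genes of the sodium-potassium pump, which carries potassium back into cells, 2 rose in each genotype and none fell. Atp1b2, the glial beta subunit, rose by 0.56 ± 0.10 in controls (FDR 0.0134) and 0.74 ± 0.13 in cKO mice (FDR 0.00852). Fxyd1, the pump regulator phospholemman, rose in controls by 0.66 ± 0.08 (FDR 0.00150) and gave 0.32 ± 0.13 in cKO mice (FDR 0.111).

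Of 5 cation-chloride cotransporters, Slc12a7 (KCC4) rose in controls by 0.83 ± 0.15 (FDR 0.0130), with 0.87 ± 0.27 in cKO mice (FDR 0.0521), and Slc12a2 (NKCC1) fell in cKO mice by -0.30 ± 0.07 (FDR 0.0198). Of 20 measured channel partners outside the Kcn symbols, 1 rose in controls (6.46% of all genes did). In cKO mice 3 rose (10.9% of all genes did) and 3 fell (8.52% did), counts too small to set apart from the background. The scaffold gene Dlg4 rose in both, by 0.33 in controls (FDR 0.0434) and 0.26 in cKO mice (FDR 0.0442). In cKO mice Dpp6, a Kv4 partner, rose by 0.24 (FDR 0.0242), while Adam22, a receptor bound to Kv1 complexes, fell by -0.25 (FDR 0.0152) and Vapb, which tethers Kv2 clusters to the endoplasmic reticulum, by -0.24 (FDR 0.0122). Of the 4 genes for hyperpolarisation-activated channels, 1 fell in each genotype, where 3.31% of all genes did in controls and 8.52% in cKO mice. Hcn2 fell in controls by -0.25 (FDR 0.0485), a call that ended once values were centred on the median gene (adjusted p = 0.0501).

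**Figure D5:**
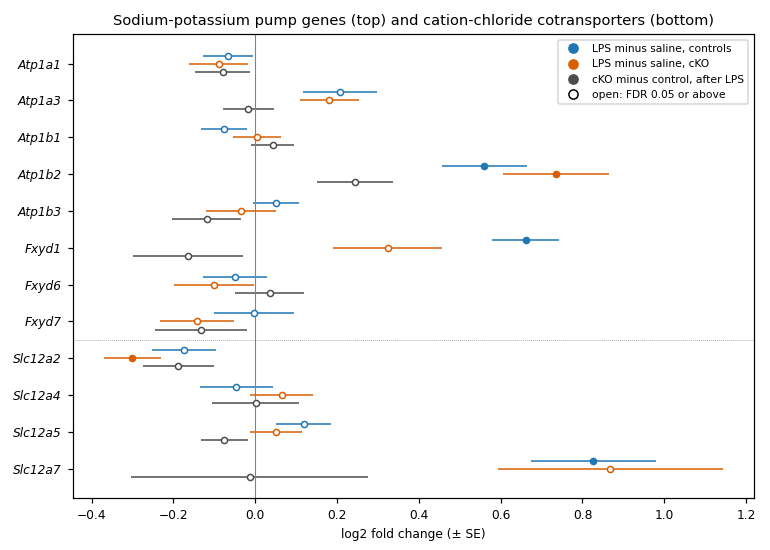
Log2 fold change (x axis, ± SE) of 8 sodium-potassium pump genes and, under the dotted line, 4 cation-chloride cotransporters, for LPS in controls (blue), LPS in cKO mice (orange) and cKO minus control after LPS (grey). Filled points have a deposited FDR below 0.05: Atp1b2 in both genotypes, Slc12a2 in cKO mice, and Fxyd1 and Slc12a7 in controls.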

How the data were processed

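The members, lists and tests were chosen with earlier results of these data known, so none of them is independent support. The submitters' processing notes name edgeR 3.30.3, RSEM, STAR, cutadapt 3.5 and the build GRCm39, without roles; the sources used here give neither the gene filter nor the strand setting. The values, per the file headers, are those the authors deposited: log2 fold change, mean log2 CPM, an F score, p-value and FDR. The fold changes were read as LPS minus saline and cKO minus control, since back-calculated group levels then differed between tables by an SD of at most 0.0537, against 0.222 or more with a sign turned.

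From these values, computed in Python 3.11.15 with scipy 1.17.1, came the SE, the group levels (all libraries weighted equally) and the test of the difference of LPS responses. That test divides the difference by its SE, taken from normal quantiles of the deposited p-values, and adjusts by Benjamini-Hochberg over all 13784 genes. Only this test was tried on simulated data, where it called 25.7% of differences of 0.5 log2 units and 73% of those of 1. Smaller differences could thus often be missed. The labels do not say whether libraries shared a litter or a preparation day. Every library title contains the word saline. The genotype label, with which the treatment label accords, therefore set the groups. No batch is named, and whether saline and LPS libraries were prepared together cannot be told apart from treatment.

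The 57 named members are, by rule, those called with LPS (at most 30 for each genotype), the 12 with the smallest p below 0.05 between genotypes, the 6 with the smallest p for the difference, all measured members of the cell-type lists, and the highest and lowest of each family of 3 or more. Lists of other genes name at most 4 called genes each. Exon overlaps come from GENCODE annotation of GRCm38. Protein sequences were not used here, and a few genes that the rule would name are not reported here, although the counts include them. Alternatives tried were other thresholds, a minimum fold, a minimum level, centring, removal of a GC and length trend, and the SE from F.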

Additional observations from a re-analysis of the deposited data

How the results depend on the processing

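Among the 70 members, the 5 calls with LPS in controls (3 higher, 2 lower) became 1 at an FDR below 0.01 (0 higher, 1 lower), 12 at an FDR below 0.10 (6 higher, 6 lower) and 2 with a fold of at least 1.5 (1 higher, 1 lower). The 16 calls in cKO mice (3 higher, 13 lower) became 5 (1 higher, 4 lower), 26 (8 higher, 18 lower) and 1 (1 higher, 0 lower) under the same settings, so every fall called in cKO mice was under 1.5-fold. The 0 calls for the difference of LPS responses became 3 with the SE from F (1 higher, 2 lower), a setting whose p-values are too small, as stated above. Centring on the median gene and a minimum mean log2 CPM of 1 left the counts at 5 and 16. Removing the GC and length trend gave 5 in controls and 14 in cKO mice, ending the calls of members named above, of Dlg4 (adjusted p = 0.0593) and Hcn2 (adjusted p = 0.110) in controls and of Dpp6 (adjusted p = 0.0887) in cKO mice, and adding Kcna6 (adjusted p = 0.0258) in controls and Kcna3 (adjusted p = 0.0363) and Kcnc4 (adjusted p = 0.0412) in cKO mice. Over all genes that setting gave 999 higher and 1040 lower in cKO mice, against 1506 and 1175 as deposited, and 597 and 456 in controls, against 890 and 456. No called member changed direction under these settings. No paired analysis was possible because values per library were not used here, and for the same reason no replicate could be left out. The number of libraries and the unknown depth limit what these tables can show.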
